A study of Homo sapiens with 30 samples.

Results

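Sagunja-tang and Samul-tang, a pair of tonic formulas of Korean medicine, were compared at matched doses in the A549 line, established from a human lung carcinoma and epithelial in type. The 9 libraries were chosen by their labels and make up 9 of the 30 libraries of the series. Cells had been exposed for 24 h to an ethanol extract of Sagunja-tang at 500, 100 or 20 µg/mL (high, medium and low dose, 1 library each, all numbered replicate 3) or of Samul-tang at the same doses (2 libraries each, numbered 2 and 3). The other 21 libraries were 3 of the solvent vehicle (DMSO) and 3 for each dose of Palmul-tang and of Sibjeondaebo-tang. They served here only to estimate the spread between replicates and, for the vehicle, as a reference level. All 30 libraries carry the same batch letter. The labels do not say that replicates came from separate cultures, so p-values measure no more than how these libraries vary, and part of that may be technical.

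As background, Sagunja-tang is classically a decoction of ginseng, Atractylodes rhizome, Poria and licorice, prescribed to replenish qi. Samul-tang combines prepared Rehmannia, Angelica, Cnidium and peony roots and is prescribed to nourish blood. Palmul-tang joins both recipes. Doses were set by extract mass, so equal doses hold different constituents. The gene lists described most closely below belong to 4 programs known from textbook biology. The aryl hydrocarbon receptor (AhR) is a ligand-activated factor that induces xenobiotic-metabolising enzymes such as CYP1A1. SREBP factors induce the enzymes of cholesterol and fatty acid synthesis when sterol supply is low. HIF factors induce glycolysis and hypoxia genes. A549 cells also transcribe several plasma protein genes better known from liver, including the fibrinogen chains.

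The 9 libraries held 28579639 to 34496632 counts each. The 9 genes listed as marks of A549 epithelium were all detected in each library, with a summed level of 17133 to 18955 CPM (counts scaled by library size). Summed levels were 16.1 to 19.5 CPM for 8 fibroblast markers, 17.5 to 21.8 CPM for 6 endothelial markers and 20.1 to 26 CPM for 7 leukocyte markers, with up to 3 markers of a list at 0 in a library. A split among libraries that the labels do not name ran through both formulas. It was seen in 3 long noncoding RNA rows on chromosome 21 (GRCh38, minus strand, starting at 8210384, 8393419 and 8437629), which lie inside the 18S ribosomal RNA genes of the RefSeq table on the opposite strand. Their summed level was 3359 to 4150 CPM in 5 of the 9 libraries (Samul-tang replicate 2 at each dose, and Sagunja-tang at the high and medium doses) and 855.5 to 957.9 CPM in the other 4 (Samul-tang replicate 3 at each dose, and Sagunja-tang at the low dose). The vehicle libraries belonged to the first set. All Palmul-tang and Sibjeondaebo-tang libraries belonged to the second, which ran from 707.1 to 1325 CPM over the whole series. The sets followed the order of the samples in the series, the first 8 forming the first set and the other 22 the second. The high- and low-dose libraries of Sagunja-tang therefore stood in different sets, and counts and named calls that changed when the set was added as a term of the model, an alternative chosen after the data were seen, are given beside the results.

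**Figure D1:**
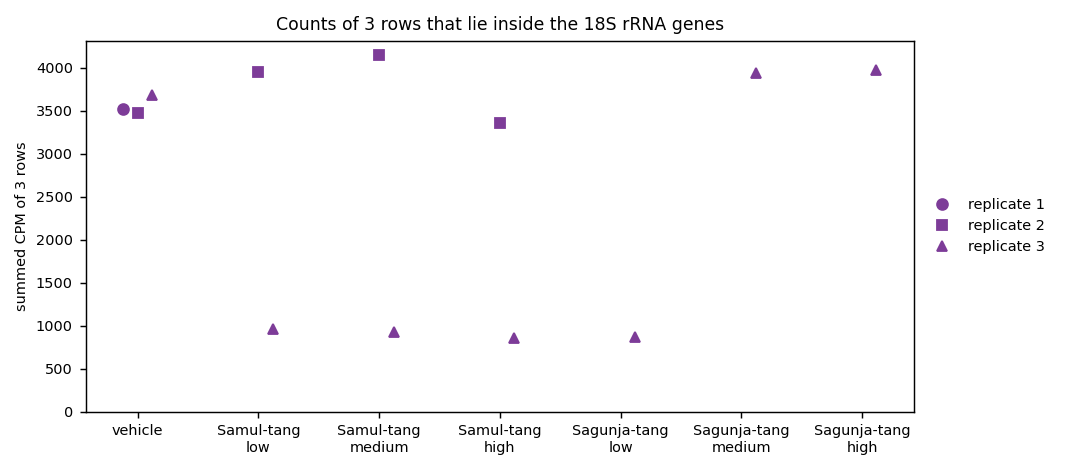
Summed CPM (y axis) of 3 noncoding rows inside the 18S rRNA genes for each vehicle, Samul-tang and Sagunja-tang library, with the group on the x axis and 1 point per library, its shape giving the replicate number. Sagunja-tang at the high and medium doses stood with vehicle and Samul-tang replicate 2, from 3359 to 4150, and Sagunja-tang at the low dose stood with Samul-tang replicate 3, from 855.5 to 957.9.

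The first comparison asked which genes differed between the formulas by a constant amount over the 3 doses, in a model of dose and formula on the 9 libraries. Almost none did. Of 16301 genes tested, 3 (0.0184%) had an adjusted p under 0.05: UGT1A1 (0.00613%) was higher with Sagunja-tang, and TNFSF14 and ANKHD1-EIF4EBP3 (0.0123%) were lower. The 95% interval of the difference lay within 1.5-fold in both directions for 99.3% of the 11219 more abundant genes (mean log2 CPM of at least 2). At an unadjusted p under 0.05 there were 1243 genes, or 7.63% of those tested. In bulk RNA, a lower level in each cell and fewer cells with the transcript cannot be told apart. DESeq2 called 9 genes. With the replicate number as a block the count was 16, and with the 30 libraries fitted as group means it was 22 (15 higher, 7 lower). Leaving out 1 library gave 1 to 30 genes: the count was 30 without Sagunja-tang at the low dose, 1 without Sagunja-tang at the high dose and 7 without Samul-tang medium replicate 2.

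TNFSF14 (chromosome 19, 6661253 to 6670588) encodes LIGHT, a cytokine of the tumor necrosis factor family that binds the lymphotoxin beta receptor. Its level with Sagunja-tang was 7.16, 7.59 and 4.59 CPM at the low, medium and high dose. With Samul-tang replicates 2 and 3 it was 9.46 and 9.67 CPM at the low, 9.79 and 10.3 at the medium and 7.13 and 6.04 at the high dose. The Sagunja-tang library lay below both Samul-tang libraries at each dose, a pattern that 4.41% of all tested genes shared. The fitted difference was -0.44 ± 0.0768 (log2, SE; adjusted p = 0.0318). With the 18S-locus set as a term it was -0.45 (adjusted p = 0.0415), but it missed the threshold in 14 of 19 alternatives, at differences of -0.47 to -0.41. Among these were DESeq2 (adjusted p = 0.0732), the replicate block (0.0523) and the omission of any Sagunja-tang library (0.0566 to 0.363), of Samul-tang high replicate 2 (0.0763), low replicate 2 (0.0564), medium replicate 3 (0.0897) or low replicate 3 (0.0849).

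UGT1A1 (chromosome 2, 233760248 to 233773299) encodes the enzyme that glucuronidates bilirubin. It stood at 30.7, 33.5 and 39.4 CPM with Sagunja-tang at rising dose, against 24.5 and 26.3, 29.1 and 25.8, and 31.4 and 31.6 CPM with Samul-tang. Sagunja-tang was above both Samul-tang libraries at each dose, as were 4.75% of tested genes. The fitted difference was 0.29 ± 0.0471 (adjusted p = 0.015). The adjusted p was 0.363 without Sagunja-tang at the high dose, 0.172 without it at the medium dose, 0.207 with only the low and medium doses and 0.0545 without Samul-tang high replicate 2. UGT1A1 shares its last exons with 8 other UGT1A genes, between which the authors' program had to divide reads. When the 9 rows were summed, the difference was 0.027 ± 0.0371 (adjusted p = 0.901), so the call applied to the UGT1A1 row and not to the locus as a whole.

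ANKHD1-EIF4EBP3 (chromosome 5, 140401908 to 140549569) is a readthrough transcript that overlaps ANKHD1 on the same strand. It stood at 37, 41.8 and 44.6 CPM with Sagunja-tang, below each of the 6 Samul-tang values of 49.2 to 52.5 CPM, with a fitted difference of -0.29 ± 0.0457 (adjusted p = 0.015). ANKHD1 itself stood at 68.1, 70 and 67.4 CPM against 54.3 to 68.7 CPM. The adjusted p of the readthrough row was 0.196 without Sagunja-tang at the medium dose, 0.0841 without it at the low dose, 0.108 with only the medium and high doses and 0.409 in the fit of all 30 libraries. For both rows summed the difference was -0.052 ± 0.0375 (adjusted p = 0.787). The totals of the UGT1A and ANKHD1 loci thus showed no difference past the threshold. The genes next in line did not pass: ETNK2, an ethanolamine kinase, at 0.21 (adjusted p = 0.0873), CIDEC, a lipid droplet protein, at 0.22 (0.163), CDH16 at 0.20 (0.163) and CCDC69 at 0.23 (0.163) in the direction of Sagunja-tang, and the antisense RNA CERS6-AS1 at -0.37 (0.0507), LGALS8, a galectin, at -0.22 (0.0887) and VLDLR, a lipoprotein receptor, at -0.31 (0.163) in the other. CERS6-AS1 overlaps CERS6 on the opposite strand, and whether reads were counted by strand is not given in the sources used here.

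**Figure D2:**
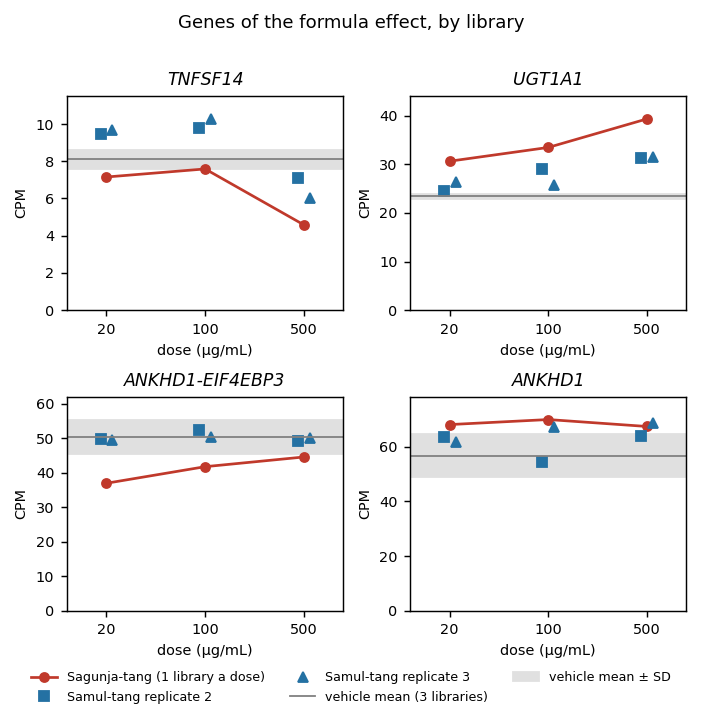
CPM (y axis, from 0) against dose (x axis, µg/mL) for the genes of the formula effect and for ANKHD1, with 1 point per library, the vehicle mean as a grey line and its SD as a band (3 libraries). TNFSF14 and ANKHD1-EIF4EBP3 lay lower and UGT1A1 higher with Sagunja-tang at each dose, and ANKHD1 lay within or near the Samul-tang values, at 67.4 to 70 CPM.

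The formulas were then compared dose by dose, with the spread estimated over all 30 libraries. Of the groups with replicates, only those of Samul-tang held libraries of both sets described above. The spread thus came mostly from replicates within a set. For contrasts that cross the sets, wholly or in part, the p-values may understate the variation. They differed at the high dose and not detectably at the lower doses. At 500 µg/mL, 118 of 17701 tested genes (0.667%) passed, 46 (0.26%) higher and 72 (0.407%) lower with Sagunja-tang, and 9.89% had an unadjusted p under 0.05. At 100 and at 20 µg/mL no gene passed edgeR's test, with 858 (4.85%) and 376 (2.12%) genes at an unadjusted p under 0.05. DESeq2 called 1 gene at each of these doses, and 1 passed at the medium dose without Samul-tang medium replicate 3. Over the 11219 more abundant genes, the SD of the log2 difference between the Sagunja-tang library and Samul-tang replicates 2 and 3 was 0.115 and 0.119 at the low dose, 0.136 and 0.169 at the medium dose and 0.151 and 0.164 at the high dose. Between the Samul-tang replicates themselves it was 0.142, 0.14 and 0.129. At the low dose the formulas were thus no farther apart than the replicates of 1 formula.

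Over the 11219 more abundant genes, called or not, the 95% interval at the high dose lay within 1.5-fold for 94.6%. The estimate was beyond 1.5-fold for 41 of them. Each of the 118 genes was set beside its own change with dose, described further on. Of the 72 lower genes, 27 fell with dose under Sagunja-tang with no call under Samul-tang, 8 rose under Samul-tang with no call under Sagunja-tang, and 32 had no call in either. Of the 46 higher genes, 13 rose under Sagunja-tang with no call under Samul-tang, 5 fell under Samul-tang with no call under Sagunja-tang, and 24 had no call in either. Over all tested genes, 0.712% fell and 0.271% rose under Sagunja-tang, and 0.74% fell and 0.604% rose under Samul-tang. The same high-dose libraries, 1 of them of Sagunja-tang, chose these genes and entered their steps. The split was thus partly fixed by the choice and does not show which formula moved. With the 18S-locus set as a term, 85 genes passed, 80 of them among the 118. The high-dose Sagunja-tang library belonged to the same set as Samul-tang high replicate 2, and replicate 3 belonged to the other. Leaving out replicate 3 thus kept the comparison within the set, and leaving out replicate 2 made it cross the sets. Without Samul-tang high replicate 2 the count was 88 (45 higher, 43 lower, 51.1% higher against 39%) and without replicate 3 it was 44, and the lone Samul-tang library was then assumed to vary like the other groups. Of 42 genes followed through 8 alternatives, 20 passed in each that gave an adjusted p, which for CYP1A1 leaves out DESeq2.

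The largest relative difference was in AhR targets. CYP1A1 (chromosome 15, 74719542 to 74725610) encodes the monooxygenase that is the best-known AhR target. With Sagunja-tang it stood at 0.21 CPM at the low, 0.63 at the medium and 13.5 at the high dose. With Samul-tang it stood at 0.279 and 0.0906, 0.323 and 0.40, and 2.05 and 1.53 CPM, and in vehicle at 0.374 ± 0.147 CPM (SD, n = 3, as for each vehicle level below). CYP1A1 thus rose with dose under both formulas, to a 7.54-fold higher level under Sagunja-tang (log2 2.91 ± 0.234, adjusted p = 1.33e-09). CYP1B1, a sister enzyme, reached 260 CPM with Sagunja-tang against 182 and 181 CPM with Samul-tang and 114 ± 2.14 CPM in vehicle (0.52 ± 0.0545, adjusted p = 3.45e-07). ALDH3A1, an aldehyde dehydrogenase, reached 2052 CPM against 1464 and 1426 CPM, from 1122 ± 57.2 CPM in vehicle (0.51 ± 0.0655, adjusted p = 1.76e-05). In each of these genes the Sagunja-tang library stood above both Samul-tang libraries, as did 36.6% of all tested genes at this dose.

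These were 3 of the 11 tested AhR list members to pass at the high dose, all higher, where 0.26% of all genes passed in that direction. The list's median difference was 0.238, against 0 over all genes. AHRR, the repressor of the receptor, stood at 4.19 CPM against 2.32 and 2.72 CPM (0.73, adjusted p = 0.104), and TIPARP, another feedback gene, at 40.6 against 33.3 and 35.1 CPM (0.25, adjusted p = 0.163). NQO1, which NRF2 also drives, differed by 0.03 (adjusted p = 0.935). CYP1B1 stood apart already at the medium dose, at 147 CPM against 122 and 123 CPM, with an unadjusted p of 3.5e-05 that did not survive adjustment. All 3 genes passed at the high dose in each alternative that gave an adjusted p. DESeq2 gave CYP1A1 none.

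The receptor's core motif GCGTG, searched on both strands of the 250 bases before the RefSeq start (GRCh38.p14), occurred in 32.2% of 35116 promoters, in 7 of the 10 AhR list promoters that the table holds, and in 15 of 18 of the cholesterol list and 7 of 12 of the fatty acid list described below, so it was not particular to AhR targets. The match in CYP1A1, in capitals, lies at chr15:74725569-74725597 (minus strand) and is shown for the gene with the largest difference of the list. GCGTG and the ACGTG searched below differ in their first letter and so never match at the same place on a strand:
CYP1A1: ccagggaaggagGCGTGgccacacgtaca

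Genes of cholesterol synthesis and uptake formed the second group that was higher with Sagunja-tang. At the high dose 10 of 25 passed, all higher, against 0.26% of all genes, with a list median of 0.287. LSS (chromosome 21), the lanosterol synthase that closes the sterol ring, stood at 97.9 CPM with Sagunja-tang against 66.4 and 67.6 CPM with Samul-tang. Vehicle stood between, at 86.9 ± 2.04 CPM. The difference was 0.55 ± 0.0569 (adjusted p = 3.45e-07). INSIG1, the sterol-regulated anchor of SREBP, stood at 70.9 against 53.2 and 48.8 CPM (0.47 ± 0.0617, adjusted p = 1.79e-05). FDPS, farnesyl diphosphate synthase, stood at 164 against 125 and 123 CPM (0.40 ± 0.066, adjusted p = 0.000726).

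The high-dose Sagunja-tang library was above both Samul-tang libraries in all 3 of these genes, as in 36.6% of all tested genes, while at the low dose the formulas differed by no more than 0.09 (log2) in any of them. Others that passed, named after their values were seen, were the early enzymes HMGCS1 (0.35) and MVK (0.39), FDFT1 (0.29), which makes squalene, and the later enzymes CYP51A1 (0.31) and DHCR7 (0.29). SQLE, which acts on squalene, differed by 0.13 (0.492) and SREBF2, the gene of the driving factor, by 0.08 (0.689). Beside vehicle, INSIG1 (74.5 ± 1.81 CPM) lay lower in all 9 libraries, while FDPS (131 ± 5.38 CPM) lay highest in the high-dose Sagunja-tang library and at 123 to 134 CPM in the 6 Samul-tang libraries. Without Samul-tang high replicate 3 the count was 6 of 25, and with the 18S-locus set as a term it was 7 of 25.

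Fatty acid synthesis went the same way, with 4 of 12 genes higher, against 0.26% of all genes, none lower and a median of 0.192. FADS2, a desaturase of polyunsaturated fatty acids, stood at 678 CPM with Sagunja-tang at the high dose against 512 and 486 CPM with Samul-tang (0.44 ± 0.0565, adjusted p = 1.46e-05). SCD, which makes monounsaturated fatty acids, stood at 1223 against 883 and 929 CPM (0.43 ± 0.0633, adjusted p = 0.00015). FADS1 differed by 0.34 (adjusted p = 0.00265) and FASN, the fatty acid synthase, by 0.29 (adjusted p = 0.0408, but 0.204 without Samul-tang high replicate 2, 0.177 without replicate 3 and 0.0982 with the 18S-locus set as a term). FADS2 shares exonic positions with FEN1 on its strand and FADS1 on the other. SREBF1, the factor gene of this branch, differed by 0.05 (adjusted p = 0.917). The sterol element TCACNCCAC, searched as above, occurred in 0.883% of promoters and in none of the 7 cholesterol and 3 fatty acid genes that passed and are in the table. This says only that these letters are not in that window.

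Genes of hypoxia and glycolysis were lower with Sagunja-tang at the high dose. Of 25, 6 passed and all were lower, against 0.407% of all genes, and 18 were lower at an unadjusted p under 0.05, against 5.19% of all genes. The median was -0.231. CA9 (chromosome 9), the carbonic anhydrase that marks hypoxic tumor cells, stood at 79.7, 72.5 and 51.9 CPM over the rising doses of Sagunja-tang. With Samul-tang it stood at 80.7 and 76.8, 82.2 and 75.7, and 91.1 and 88.9 CPM, and in vehicle at 78.2 ± 2.52 CPM. The groups met at the low dose and parted on both sides of vehicle at the high dose, by -0.80 ± 0.0904 (adjusted p = 2.9e-06).

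BNIP3, a mitophagy receptor, stood at 59.4 CPM against 86.7 and 84.7 CPM (-0.53 ± 0.0826, adjusted p = 0.000429). LDHA, lactate dehydrogenase, stood at 1965 against 2497 and 2594 CPM, from 1787 ± 43 CPM in vehicle (-0.37 ± 0.0611, adjusted p = 0.000726). P4HA1, a collagen prolyl hydroxylase subunit, stood at 37.8 against 47.7 and 52.7 CPM (-0.41 ± 0.079, adjusted p = 0.00486, and 0.13 without Samul-tang high replicate 3). The remaining members that passed, named after their values were seen, were ALDOA (-0.28), a glycolytic aldolase, and SLC2A3 (-0.39), a glucose transporter. Members that did not pass included VEGFA at -0.23 (adjusted p = 0.199), SLC2A1 at -0.15 (0.45) and EGLN3 at -0.39 (0.134). The count was 3 of 25 without Samul-tang high replicate 3 and 5 of 25 with the 18S-locus set as a term.

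The HIF core ACGTG, searched on both strands of the same window, occurred in 18.5% of all promoters, in 11 of the 21 list promoters in the table and in each of the 5 of the called genes found there. CACGTG reads the same on both strands and counts as 2 matches. The CYP1A1 window holds 1 match as well. The match nearest the start is shown for these 5 genes, the called members with a promoter in the table, with all matches in the stretch in capitals. They lie at chr9:35673898-35673926 (plus strand), chr10:131982040-131982068 (minus), chr11:18394478-18394506 (plus; its first capitals end a further match), chr16:30064089-30064117 (plus) and chr10:73096936-73096964 (minus), in the order printed:
CA9: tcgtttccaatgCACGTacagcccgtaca
BNIP3: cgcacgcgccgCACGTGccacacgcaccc
LDHA: CGTGggttcccgCACGTccgccggccccc
ALDOA: ccttcccctccaCACGTcaacgattctat
P4HA1: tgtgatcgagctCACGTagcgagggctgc

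**Figure D3:**
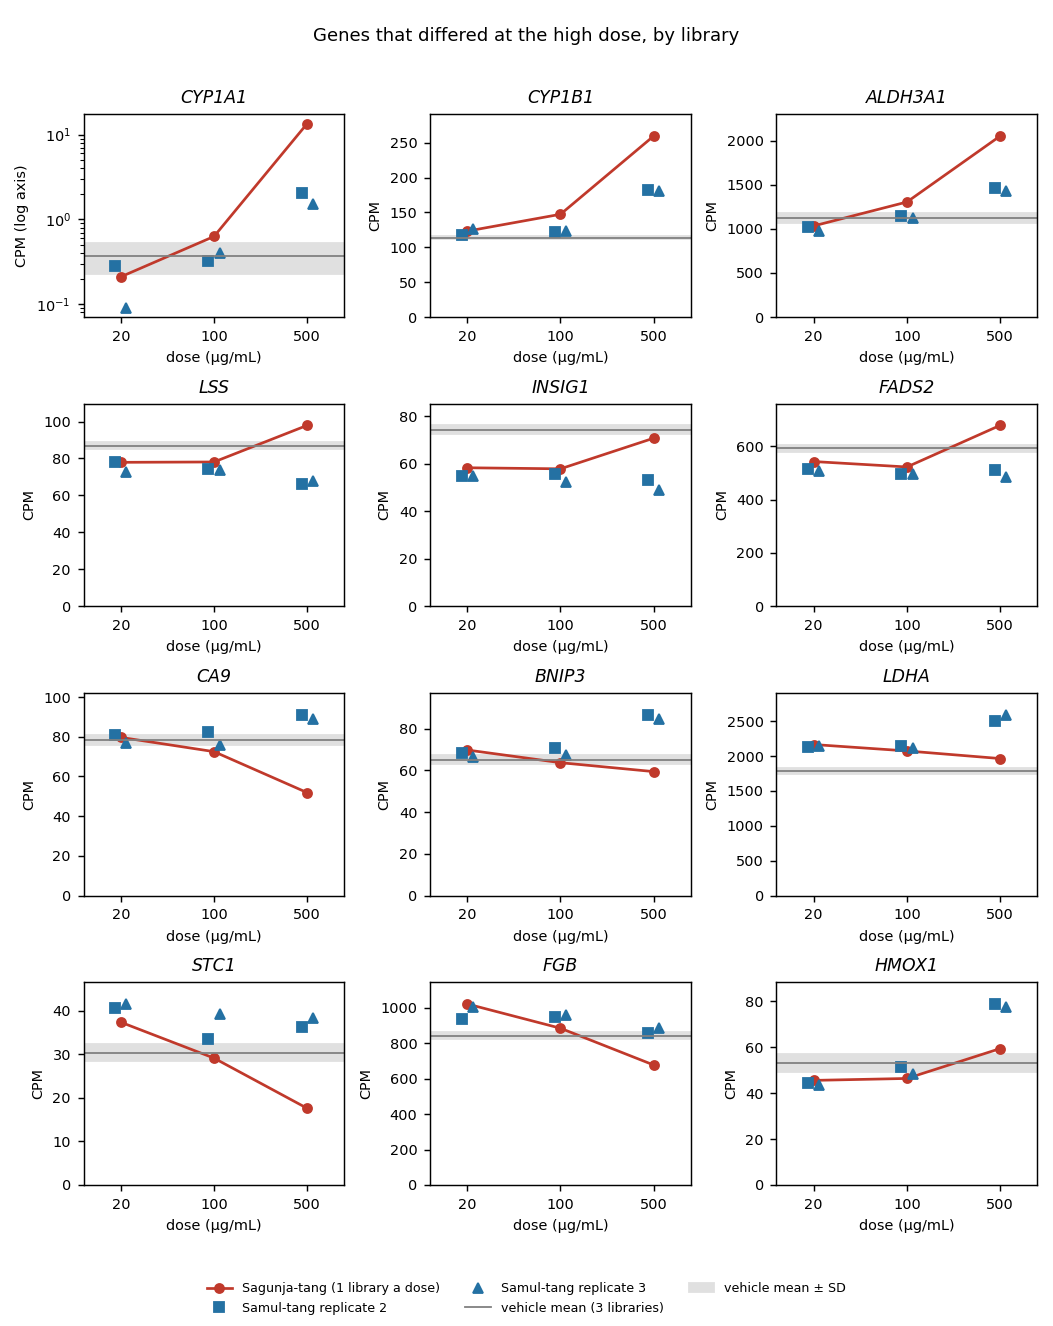
CPM (y axis, from 0 except for CYP1A1, which has a log axis) against dose (x axis, µg/mL) for 12 genes that passed at the high dose, with 1 point per library, the vehicle mean as a grey line and its SD as a band (3 libraries). AhR and lipid genes lay above Samul-tang, and CA9, BNIP3, LDHA, STC1, FGB and HMOX1 below it, at 500 µg/mL, while the points of both formulas lay close together at 20 µg/mL.

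STC1 encodes stanniocalcin, a secreted regulator of calcium and phosphate whose gene is known to respond to hypoxia. It stood at 37.4, 29.1 and 17.6 CPM over the rising doses of Sagunja-tang and at 40.7 and 41.6, 33.5 and 39.3, and 36.3 and 38.3 CPM with Samul-tang, with vehicle at 30.3 ± 1.97 CPM. The Sagunja-tang library lay below both Samul-tang libraries at each dose, and at the high dose, where 36.1% of all genes lay below both, the difference was -1.08 ± 0.112 (adjusted p = 3.45e-07).

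Plasma protein genes of hepatocyte type were also lower with Sagunja-tang at the high dose, in 4 of 18 tested, against 0.407% of all genes, and with a median of -0.185. FGB stood at 677 CPM against 860 and 887 CPM (-0.37 ± 0.0592, adjusted p = 0.000673), FGA at 763 against 957 and 980 CPM (-0.34 ± 0.06, adjusted p = 0.00156) and FGG at 695 against 851 and 899 CPM (-0.33 ± 0.0702, adjusted p = 0.0115). These are the fibrinogen chains. TF, transferrin, stood at 8.37 against 15.3 and 17.5 CPM (-0.97 ± 0.17, adjusted p = 0.00335), and it shares exonic positions with SRPRB. Without Samul-tang high replicate 3 only FGA and FGB passed, and the adjusted p of TF was 0.0506. Of the 18 members, 4 had a positive difference. At an unadjusted p under 0.05, 1 was higher (4.69% of all genes) and 7 were lower (5.19%). Outside the list and named after their values were seen, the copper carrier CP (-0.74, adjusted p = 0.00156) and the retinol carrier RBP4 (-0.40, adjusted p = 0.00139) were lower as well. ALB, the defining hepatocyte transcript, was at most 0.244 CPM in any of the 9 libraries and was not tested.

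Among NRF2 targets, the antioxidant response, HMOX1 alone of 26 passed, lower with Sagunja-tang, against 0.407% of all genes in that direction. HMOX1, heme oxygenase, stood at 59.4 CPM with Sagunja-tang against 78.9 and 77.5 CPM with Samul-tang at the high dose and at 53.2 ± 3.89 CPM in vehicle (-0.40 ± 0.0781, adjusted p = 0.00597). ME1, a NADPH source, differed by 0.19 (adjusted p = 0.193), AKR1C1 by 0.13 (0.433) and AKR1B10 by 0.17 (0.414). ALAS1, the first enzyme of heme synthesis, was lower by the test (-0.33, adjusted p = 0.00928, and 0.0952 without Samul-tang high replicate 2).

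ANGPTL4, an inhibitor of lipoprotein lipase, stood at 40.3 CPM against 63.8 and 56 CPM (-0.57 ± 0.101, adjusted p = 0.00252). It was among the 2 of 17 genes of the fatty acid oxidation and PPAR list to pass, both lower, against 0.407% of all genes. TSC22D3, the glucocorticoid-induced GILZ gene, stood at 281 against 212 and 217 CPM (0.39 ± 0.0582, adjusted p = 0.00018). It was the single higher call of 20 glucocorticoid receptor targets (0.26% of all genes), in which ANGPTL4 was the single lower one (0.407%).

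Among the largest differences, genes of low level lost their call when 1 library was left out. RAB26, a vesicle GTPase, stood at 7.35 against 4.49 and 4.25 CPM (0.75, adjusted p = 0.0384), ANKRD2 at 8.26 against 5.42 and 5.02 CPM (0.66, 0.036), CPNE7 at 13.4 against 7.53 and 9.86 CPM (0.63, 0.0168) and RRAD at 18.9 against 13 and 11.8 CPM (0.61, 0.0205). CDRT4 stood at 2.65 against 5.92 and 6.51 CPM (-1.23, adjusted p = 0.0197) and shares exonic positions with TVP23C. CLDN2, a pore-forming claudin, stood at 2.31 against 4.28 and 5.21 CPM (-1.04, adjusted p = 0.015). Without Samul-tang high replicate 2 the adjusted p was 0.312 for CPNE7, 0.136 for RAB26, 0.1 for ANKRD2 and 0.0516 for CDRT4. Without replicate 3 it was 0.24 for RAB26, 0.261 for ANKRD2, 0.22 for RRAD, 0.144 for CDRT4 and 0.185 for CLDN2. With the 18S-locus set as a term, the adjusted p was 0.161 for ANKRD2, 0.166 for RAB26, 0.071 for RRAD, 0.0597 for CDRT4 and 0.0566 for CLDN2. The secreted gastric protease PGC (-0.65, adjusted p = 0.00956) and the mucin MUC13 (-0.55, adjusted p = 0.00825) were the 2 of 13 mucin and gastric-type genes to pass. Both were lower, against 0.407% of all genes, and 3 of the 13 had a positive difference. The adjusted p of PGC was 0.0858 without Samul-tang high replicate 2 and that of MUC13 was 0.085 without replicate 3.

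The remaining list members named by the rule that passed were higher for CYP4F3 (0.34, adjusted p = 0.00825), which hydroxylates leukotrienes, the epithelial keratin KRT19 (0.27, 0.0424) and the YAP target ANKRD1 (0.36, 0.0326), and lower for SOX9 (-0.57, 0.0466), an epithelial progenitor factor. Without Samul-tang high replicate 3 their adjusted p was 0.0945, 0.405, 0.184 and 0.294. With the 18S-locus set as a term it was 0.161 for KRT19, 0.0651 for ANKRD1 and 0.134 for SOX9. Of the genes named with the formula effect, ETNK2 (0.33, adjusted p = 0.00825), CDH16 (0.33, 0.0113) and LGALS8 (-0.33, 0.0181) passed at the high dose, with an adjusted p of 0.1, 0.181 and 0.166 without that library. With the set as a term it was 0.0503 for CDH16 and 0.068 for LGALS8.

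Transcripts of the mitochondrial genome had the lowest list median at the high dose, -0.461 over 15 genes. None of them passed, 7 were lower at an unadjusted p under 0.05 (5.19% of all genes), and MT-ND1 stood at 8484 CPM against 12877 and 13212 CPM (-0.62, adjusted p = 0.398). Mitochondrial transcripts took 15.6% of the counts of the high-dose Sagunja-tang library, 19.6% of both high-dose Samul-tang libraries and 15.2% to 18.6% of the vehicle libraries. At the medium dose the share was 17.6% with Sagunja-tang and 15.9% and 20% with Samul-tang. In a list of 16 nuclear-retained and decay-sensitive RNAs, a sign of RNA quality, 5 were higher at an unadjusted p under 0.05 (4.69% of all genes) and none passed, with a summed level of 2111 CPM in the high-dose Sagunja-tang library and 1871 and 1800 CPM in the Samul-tang ones. The part of either in the high-dose differences was not tested. The highest list median, 0.614, was that of 5 short RNAs of the 7SL and 7SK list, with none at an unadjusted p under 0.05. The nuclear-encoded respiratory chain, 31 genes, had a median of 0 and no call. No member passed at the high dose among 24 ATF4 targets, 20 chaperones of the endoplasmic reticulum, 24 p53 targets, 23 interferon-stimulated genes, 21 NF-kB and chemokine genes, 30 mitosis genes, 34 DNA replication genes or 39 ribosomal protein genes.

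**Figure D4:**
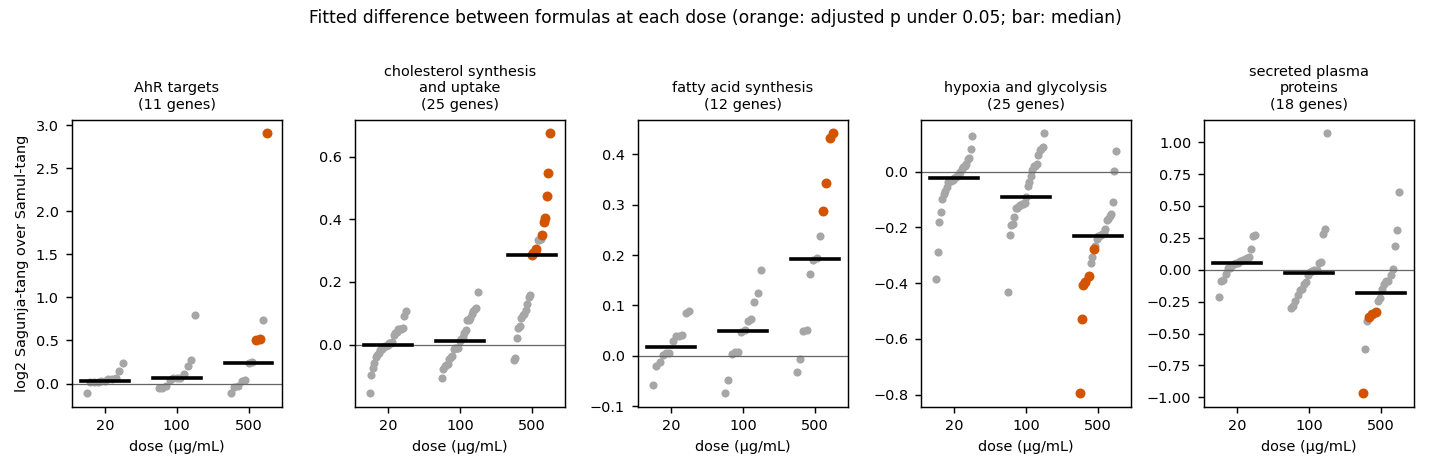
Fitted log2 difference of Sagunja-tang over Samul-tang (y axis) at each dose (x axis, µg/mL) for the tested members of 5 gene lists, with 1 point per gene, orange where the adjusted p was under 0.05 and a bar at the median. The bars of the AhR, cholesterol, fatty acid and hypoxia lists stood near 0 at 20 µg/mL and at 0.238, 0.287, 0.192 and -0.231 at 500 µg/mL.

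The list medians at the lower doses were small and no member passed. At the medium dose they were 0.065 for AhR targets, 0.011 for cholesterol genes, 0.049 for fatty acid synthesis, -0.091 for hypoxia and glycolysis and -0.029 for plasma proteins. At the low dose they were 0.03, -0.001, 0.017, -0.023 and 0.053. The cholesterol difference was thus present at 500 µg/mL and not visible in the median at 100 µg/mL. At each of the 3 doses the AhR and fatty acid medians were positive and the hypoxia median was negative. A constant sign was not particular to these lists: NF-kB and chemokine genes had medians of 0.038, 0.078 and 0.099 at rising dose. At the low dose no member of the AhR, cholesterol, fatty acid, hypoxia or plasma protein lists had an unadjusted p under 0.05 (2.12% of all genes).

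Each formula's own response was measured as a dose step, the log2 change from low to high dose divided by 2, which is the change per 5-fold dose where the response is even. Under Sagunja-tang 174 genes passed (0.983%), of which 48 rose (0.271%) and 126 fell (0.712%). Under Samul-tang 238 passed (1.34%), of which 107 rose (0.604%) and 131 fell (0.74%). The Sagunja-tang step compares 1 library with 1 library from the other 18S-locus set, so a spread taken mostly within sets may understate its variation. With that set as a term 57 genes passed. The Samul-tang step uses 2 libraries at each end, 1 of each set, and the term left its count at 238. That count was 373 with the replicate block. It was 58 without Samul-tang high replicate 2, 106 without high replicate 3, 149 without low replicate 2 and 49 without low replicate 3.

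AhR genes rose with dose under both formulas, in 6 of 11 genes under Sagunja-tang (4 with the 18S-locus set as a term) and 5 of 11 under Samul-tang. Over all genes, 0.271% rose and 0.712% fell under Sagunja-tang, and 0.604% rose and 0.74% fell under Samul-tang. With that term, 16 of 17701 genes rose and 41 fell under Sagunja-tang. The step of CYP1A1 was 2.99 ± 0.205 under Sagunja-tang and 1.65 ± 0.194 under Samul-tang. That of CYP1B1 was 0.54 ± 0.0325 and 0.29 ± 0.0231, and that of ALDH3A1 was 0.49 ± 0.0389 and 0.27 ± 0.0273. Cholesterol genes rose in 5 of 25 under Sagunja-tang (0 with that term) and fell in 2 of 25, among them HMGCS1 (-0.15), under Samul-tang. Hypoxia and glycolysis genes rose in 7 of 25 under Samul-tang, among them BNIP3 (0.17 ± 0.0331) and LDHA (0.13 ± 0.0246), and fell in 2 of 25, CA9 (-0.31) and SLC2A3 (-0.23), under Sagunja-tang (2 with that term).

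Plasma protein genes fell in 10 of 18 under Sagunja-tang (3 with the 18S-locus set as a term) and in 5 of 18 under Samul-tang, with list medians of -0.283 and -0.114. Of all genes, 0.712% and 0.74% fell. HMOX1 rose by 0.42 ± 0.0324 per step under Samul-tang (adjusted p = 5.06e-10) and by 0.19 ± 0.0457 under Sagunja-tang (adjusted p = 0.0268, and 0.282 with the 18S-locus set as a term). NRF2 targets rose in 9 of 26 under Samul-tang and 4 of 26 under Sagunja-tang (1 with that term), against 0.604% and 0.271% of all genes, and fell in none. The steps of LSS, FDPS and FADS2 under Sagunja-tang (0.16, 0.19 and 0.16) passed, but not with the set as a term (adjusted p of 0.0923, 0.105 and 0.103). With that term the steps of SCD (0.20, adjusted p = 0.0158), CYP1A1 (2.80, 7.02e-08), CA9 (-0.35, 0.00169), STC1 (-0.49, 0.000152) and FGB (-0.27, 0.000128) still passed.

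A call in 1 formula and not in the other does not show that the responses differ, so the difference of the steps was tested. Of 17701 genes 16 (0.0904%) passed, 5 (0.0282%) with the higher step under Sagunja-tang and 11 (0.0621%) with the lower. CYP1B1 (0.25 ± 0.0397, adjusted p = 0.00311) and ALDH3A1 (0.23 ± 0.0472, adjusted p = 0.0388) rose more steeply under Sagunja-tang. LSS (0.25 ± 0.041, adjusted p = 0.00353) had steps of opposite sign, and so did CA9 (-0.41 ± 0.0621, adjusted p = 0.00311), BNIP3 (-0.29 ± 0.0576, adjusted p = 0.0347) and MARCKSL1 (-0.28 ± 0.0549, adjusted p = 0.03). STC1 fell more steeply under Sagunja-tang (-0.47 ± 0.075, adjusted p = 0.00311), and so did the growth factor gene HGF (-0.31 ± 0.064, adjusted p = 0.0394).

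Further genes, named after their values were seen, were the Fc receptor gene FCAR (0.88) and, on the lower side, RBP4 (-0.24), NTS (-0.26), FGB (-0.22), FGA (-0.20), TGM2 (-0.19) and B4GALT1 (-0.19). CYP1A1, whose step difference was 1.34 ± 0.38, did not pass (adjusted p = 0.34). With the 18S-locus set as a term only CYP1B1 (0.26, adjusted p = 0.00862) and CA9 (-0.44, adjusted p = 0.00569) passed, and STC1 and LSS each had an adjusted p of 0.058. The count was 25 with the replicate block, 47 with DESeq2, 7 without Samul-tang high replicate 2, 4 without high replicate 3, 6 without low replicate 2 and 7 without low replicate 3. CYP1B1 and CA9 passed in each of the 10 alternatives.

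**Figure D5:**
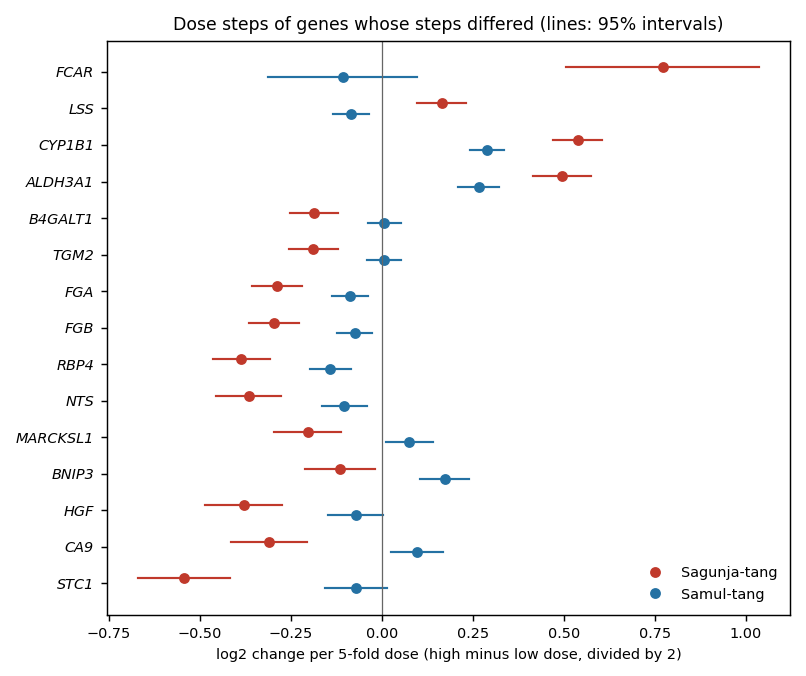
Log2 change per 5-fold dose (x axis) of 15 of the 16 genes (y axis) whose steps differed between the formulas, with Sagunja-tang in red, Samul-tang in blue and 95% intervals as lines. The steps lay on opposite sides of 0 for LSS (0.16 and -0.08), CA9 (-0.31 and 0.10) and BNIP3 (-0.12 and 0.17), and on the same side for CYP1B1 (0.54 and 0.29).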

How the data were processed

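Reads were checked with FastQC 0.11.9, trimmed with Trim Galore 0.6.5, aligned to GRCh38 with STAR 2.7.3a and quantified with RSEM 1.3.3, per the submitters' processing notes. The annotation release and strand setting are not given in the sources used here. The authors deposited expected counts, 1 value per gene and library, in which reads shared by genes are divided, and 8.89% to 9.42% of them per library were not whole. They were rounded. The table holds 60675 gene rows and 240 columns of other samples, which were not used. Symbols were found for 41600 rows.

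The formula effect was fitted on the 9 libraries (dose and formula as terms, 16301 genes, 5 residual degrees of freedom). The dose-wise differences and dose steps came from a mean per group over all 30 libraries (17701 genes, 17 residual degrees of freedom). Both used edgeR 4.0.16 in R 4.3.3 (filterByExpr, TMM, glmQLFit with robust estimation, glmQLFTest) with Benjamini-Hochberg adjustment over all genes of a comparison and a threshold of 0.05. A lone Sagunja-tang library was assumed to vary like the other groups. CPM use TMM-scaled library sizes. Tests were run on simulated data with known changes. For the formula effect 62.9% of genes lowered by 0.5 (log2) were recovered and 13.1% of calls were unchanged genes, a share above the threshold of 0.05. For the high dose the values were 45.8% and 5.83%. For the step difference they were 25% (median fitted value -0.26) and 2.25%. Whether these shares hold for the real libraries, with their split into sets, was not tested.

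The members and the 46 gene lists were chosen with earlier results of these data known. Named genes were, for the formula effect, the 10 largest called per direction that average log2 CPM 2 or more, filled to 5 by smallest p; for the high dose and the step difference, the 5 largest per direction outside the Samul-tang range; and up to 4 members per list with the smallest p. Replicate numbers were tested as pairs: replicate 3 minus replicate 2 of Samul-tang correlated between doses by 0.21, 0.228 and 0.26 over the 11219 more abundant genes. These replicates lay in different 18S-locus sets at each dose, so pairing and set cannot be told apart. For the formula effect, the block and the fit on libraries numbered 3 set high- and medium-dose Sagunja-tang beside Samul-tang libraries of the other set. Blocked counts are given where they moved by more than 1.5 times. Alternatives were DESeq2 1.42.0, RLE size factors, no filter, the replicate block, subsets of doses or libraries and leaving out each library. The 18S-locus term and the sums over rows that share exons were chosen after seeing the data. Some genes that the rule names are not reported here. Promoters are RefSeq's (GRCh38.p14) and gene positions are from GENCODE.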

Additional observations from a re-analysis of the deposited data

Results flagged for a closer look

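The dose steps of the formulas differed in 16 genes by the test of the difference itself. The difference, as Sagunja-tang minus Samul-tang in log2 per 5-fold dose, was 0.25 for LSS, 0.25 for CYP1B1, 0.23 for ALDH3A1, -0.47 for STC1, -0.41 for CA9, -0.31 for HGF, -0.29 for BNIP3 and -0.28 for MARCKSL1. The high- and low-dose libraries of Sagunja-tang also differ in the 18S-locus rows (3980 and 863.6 CPM). With that set as a term the values were 0.24 for LSS, 0.26 for CYP1B1, 0.21 for ALDH3A1, -0.42 for STC1, -0.44 for CA9, -0.29 for HGF, -0.31 for BNIP3 and -0.27 for MARCKSL1, and CYP1B1 and CA9 were the only ones of the 16 to pass.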

How the results depend on the processing

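No followed gene changed sign under any alternative. The formula effect gave 9 genes with DESeq2, 144 without a filter on low counts (84 higher, 60 lower), 16 with the replicate block, 22 over all 30 libraries, 6 with only the low and medium doses, 24 with only the medium and high doses and 20 with only libraries numbered 3, and 1 to 30 when 1 library was left out. The high-dose count was 204 without a filter (114 higher, 90 lower) and 44 to 88 with 1 Samul-tang library left out. At the medium dose DESeq2 gave 1 gene, no filter gave 9, and leaving out 1 library gave 0 to 1. At the low dose DESeq2, no filter and a fit on only the 9 libraries gave 1, 1 and 2. The Sagunja-tang step gave 57 with the 18S-locus set as a term, and cannot be estimated without either of its end libraries. The Samul-tang step gave 464 without a filter, 373 with the replicate block and 49 to 149 with 1 library left out. The step difference gave 47 with DESeq2, 50 without a filter, 25 with the block, 2 with the 18S-locus set and 4 to 7 with 1 library left out. The share of higher calls at the high dose was 39%, and was 55.9% without a filter and 51.1% without Samul-tang high replicate 2. The replicate block changed no other count by more than 1.5 times. RLE size factors moved the median of all genes by at most 0.003. The cause of these changes was not tested. Having 1 Sagunja-tang library per dose limits what can be resolved.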
